A study of Mus musculus with 3 samples.

Results

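The defensin genes of the mouse were followed in whole proximal jejunum, the upper small intestine below the duodenum, of Sox4 knockout mice relative to wild type. Members were all genes whose symbol in the array annotation starts with Defa (alpha defensins) or Defb (beta defensins). This gave 51 of the 20738 genes measured, 9 alpha and 42 beta, on 12 and 48 array features (spots of a probe). Updating the annotation by accession showed 6 more alpha genes (Defa27, Defa32, Defa37, Defa38, Defa40 and Defa42) and 1 more beta gene (Defb33) that it lists under older names. They fall outside the rule and are described beside its members, so that 15 alpha and 43 beta genes could be read. No member was removed for low values, since no intensities were used here.

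The knockout samples are labelled as Sox4 deleted with vilCre, the Cre recombinase under the villin promoter, which is active in intestinal epithelium and not in the other cells of whole jejunum. Each of 3 arrays held total RNA of a different knockout sample in Cy5 against wild-type proximal jejunum in Cy3, so the arrays form 1 group of n = 3. Age, sex and strain are not given in the labels, nor is whether the wild-type RNA was pooled. No array had the dyes swapped, so a dye effect and genotype cannot be told apart. Values are given as the log2 of knockout over wild type, errors are SDs over the arrays, and directions rest on the dyes in the labels. Sox4 itself had -0.66, 0.18 and -0.46 on arrays 1, 2 and 3 (adjusted p = 0.332 in limma), the mean of 3 features that disagreed. Feature 53932 was below 0 on all 3 arrays (-1.21, -0.72 and -0.93), feature 35668 had -0.82, 0.03 and -0.43, and feature 32792 had 0.06, 1.23 and -0.02. The array 2 mean lay above 0, and feature 32792 was its largest term, so the sample that the labels call knockout had Sox4 features on both sides of 0 there. The Y-linked gene Eif2s3y had -7.28 ± 0.25 and Xist, the RNA of the inactive X chromosome, 1.71 ± 0.18, both past the threshold, so sex and genotype cannot be told apart for any gene below.

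Defensins are small cationic peptides, held together by disulphide bonds, that damage bacterial membranes. In the mouse small intestine alpha defensins, also called cryptdins, are stored in the granules of Paneth cells at the crypt base, are cut to their active form by the metalloprotease matrilysin (Mmp7), and are known targets of Wnt signalling through TCF factors. Beta defensins are made by many epithelia, and a large share of the mouse genes is known from the epididymis. The alpha genes are related copies in a single cluster whose gene content is known to differ between inbred strains, so a feature can take up RNA of several genes and each alpha value is uncertain as the value of 1 gene.

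The bases before the transcription start show how alike the alpha genes are and where they differ. Of the 15 measured alpha genes 7 were found in the RefSeq promoter table (mouse assembly GRCm38.p6). For 6 of them, chosen because they differed most on array 2, the 160 bases before the start are printed 5′ to 3′, with capitals for the motifs searched on both strands, which did not overlap in them. The TCF/LEF motif searched was CTTTGAT, which reads ATCAAAG on the opposite strand. The longer Sox motif was ACAAAG, the shorter Sox motif was ACAAT, and the TATA motif was TATAAA.
Defa21, chr8:21025385-21025544, plus strand: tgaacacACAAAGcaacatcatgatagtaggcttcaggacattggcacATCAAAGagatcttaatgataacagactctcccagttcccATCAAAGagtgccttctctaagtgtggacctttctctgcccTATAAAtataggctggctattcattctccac
Defa32, chr8:21528870-21529029, plus strand: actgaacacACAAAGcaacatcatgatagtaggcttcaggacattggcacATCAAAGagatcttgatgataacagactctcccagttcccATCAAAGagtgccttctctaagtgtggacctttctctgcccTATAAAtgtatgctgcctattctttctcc
Defa23, chr8:21054880-21055039, plus strand: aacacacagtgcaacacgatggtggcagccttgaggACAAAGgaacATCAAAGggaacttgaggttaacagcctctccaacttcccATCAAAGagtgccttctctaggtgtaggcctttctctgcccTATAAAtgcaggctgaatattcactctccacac
Defa37, chr8:21565226-21565385, plus strand: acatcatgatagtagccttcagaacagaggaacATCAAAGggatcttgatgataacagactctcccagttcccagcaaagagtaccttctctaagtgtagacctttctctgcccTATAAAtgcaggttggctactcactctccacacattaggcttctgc
Defa38, chr8:21096051-21096210, minus strand: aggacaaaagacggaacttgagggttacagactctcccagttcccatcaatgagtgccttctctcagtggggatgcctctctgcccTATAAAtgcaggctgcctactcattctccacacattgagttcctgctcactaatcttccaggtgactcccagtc
Defa42, chr8:21456518-21456677, minus strand: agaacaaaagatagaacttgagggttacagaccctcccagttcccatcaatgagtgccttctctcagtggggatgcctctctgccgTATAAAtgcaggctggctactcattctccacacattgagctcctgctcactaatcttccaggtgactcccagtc
The TCF/LEF motif was present in 5 of the 7 alpha promoters, the longer Sox motif in 4, the shorter in 0 and the TATA motif in all 7. Of 32851 promoter windows of the same length in the table, 1.96% held the TCF/LEF motif, 10.7% the longer and 18.4% the shorter Sox motif, and 8.02% the TATA motif. Defa21, Defa32 and Defa23 each held the TCF/LEF motif at 2 places and Defa37 at 1, while Defa38 and Defa42 held the TATA motif alone. The windows end at the annotated start and do not cover the same stretch of each promoter. From the start, the TATA motif began at -74 in Defa38 and Defa42 and at -46 in Defa37. It began between -33 and -29 in Defa21, Defa23, Defa31 and Defa32. The place of the stretch cccATCAAAGag of Defa21, Defa32 and Defa23 lies within the windows of Defa38, Defa42 and Defa37. It reads cccatcaatgag in Defa38 and Defa42 and cccagcaaagag in Defa37. At that place the missing TCF/LEF match is a difference in bases, not a shift of the window. Before gaacttgagg, Defa23 reads ACAAAGgaacATCAAAGg, while Defa38 reads acaaaagacg and Defa42 acaaaagata, without either motif. A motif further upstream in Defa38, Defa42 or Defa37 may still lie beyond the window. Over all 300 bases of the table's windows, Defa21 and Defa32 were 96.4% identical, Defa38 and Defa42 97.3%, and Defa21 and Defa23 81.6%. The 21 pairs among the 7 genes included 10 that set Defa38 or Defa42 against another gene, at 59.9% to 66.7%. The 10 among the other 5 genes were 75.7% to 100% identical. Identity was counted over all columns of an alignment, gaps included, so a shift between windows lowers it. Defa38 with Defa23 had 212 identical bases in 349 columns, and Defa21 with Defa23 had 248 in 304. How far Defa38 and Defa42 differ in the aligned bases alone is not given by these percentages. The promoter of Defa31 was identical to that of Defa23 over all 300 bases. A match is a description of letters and not a binding site.

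No alpha defensin passed the threshold of an adjusted p of 0.05 (limma with Benjamini-Hochberg adjustment over 20738 genes) in either direction, where 0.106% of all genes passed as higher and 0.222% as lower. At an unadjusted p under 0.05, 1 of the 9 genes (Defa5) and 2 of the 15 (Defa5 and Defa37) were higher and none lower, against 12.0% of all genes higher and 14.3% lower. The alpha genes were instead the part of the family on which the arrays disagreed. Their median SD over the arrays was 0.91 for the 9 genes and 1.02 for the 15, against 0.28 for the 42 beta genes and 0.22 for all genes. Defa21 had the largest SD of all 20738 genes, 3.64.

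Array 2 stood apart for the alpha genes. On it 7 of the 9 genes had a ratio beyond 1 in size, where 4.27% of all genes did. Of these 5 were above 1 and 2 below -1, against 2.0% and 2.27% of all genes. With the older names included it was 12 of 15, 8 above and 4 below. On array 1 and on array 3 Defa21 alone lay beyond 1 among the 15, where 3.59% and 3.26% of all genes did. Only 1 of the 9 genes, Defa5, had the same sign on all 3 arrays, against 50.6% of all genes.

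**Figure D1:**
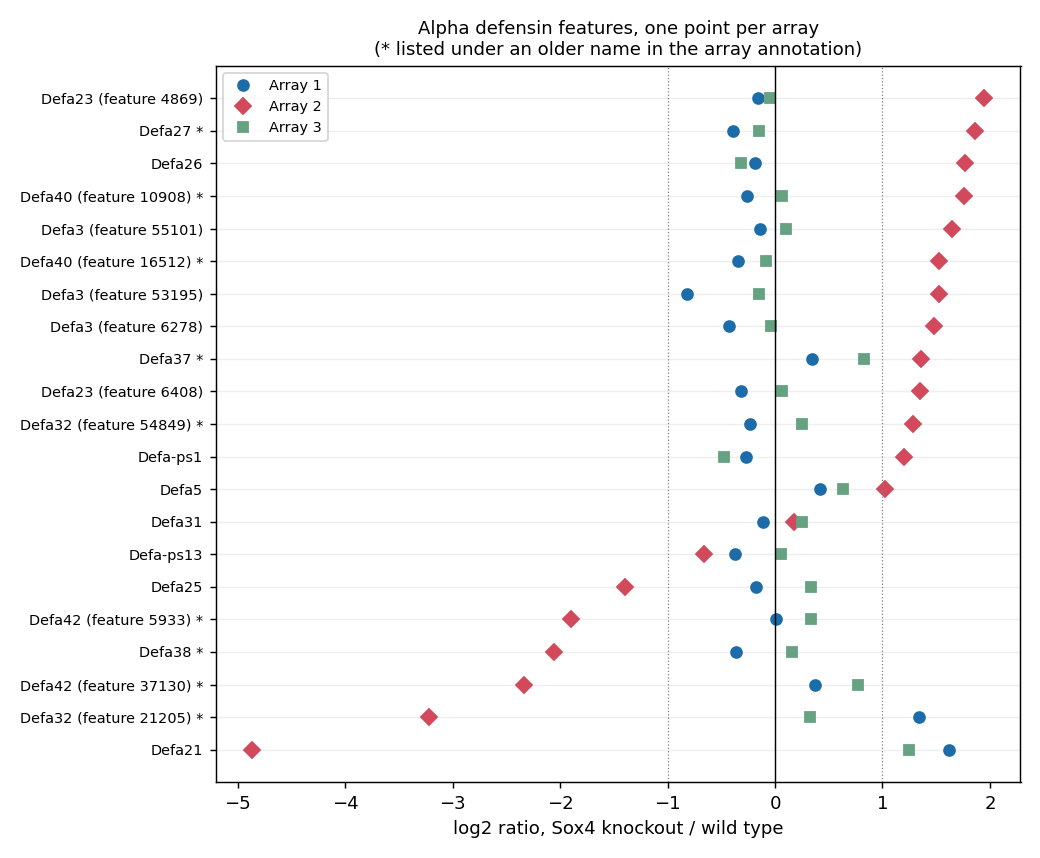
Log2 ratios of the 21 alpha defensin features (rows, ordered by array 2) on the 3 arrays (circle, diamond and square), with dotted lines at -1 and 1. On array 2, 13 features lie above 1 and 6 below -1, while on arrays 1 and 3 most lie within 1 of 0.

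The genes that were high on array 2 moved by similar amounts. Defa26 had -0.18, 1.77 and -0.32 on arrays 1, 2 and 3. Defa23, the mean of 2 features, had -0.24, 1.65 and 0.01. Defa3, the mean of 3 features, had -0.46, 1.55 and -0.03. In each, array 2 was high and arrays 1 and 3 lay near 0 or below it. The pseudogene Defa-ps1 had -0.27, 1.20 and -0.47, the same arrangement. Among genes with older names Defa27 had -0.39, 1.87 and -0.15, and Defa40 -0.30, 1.64 and -0.01. All 5 single features of Defa23 and Defa3 were above 1 on array 2, between 1.35 and 1.94, so these means did not rest on 1 feature. The features may take up the same RNA, which was not examined, so they are not independent measures of 2 genes. Without array 2 the means of Defa23, Defa26 and Defa3 turned to -0.11, -0.25 and -0.25.

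A smaller number of alpha genes lay in the opposite direction on the same array. Defa21 had 1.62, -4.86 and 1.25, so that it was 3.07-fold and 2.38-fold higher than wild type on arrays 1 and 3 and 29.1-fold lower on array 2 (folds take the log base as 2). Its mean of -0.67 ± 3.64 (adjusted p = 0.762, limma) describes none of the arrays, and without array 2 it was 1.43 (adjusted p = 0.0661). Defa25 had -0.18, -1.40 and 0.33. Defa42, the mean of 2 features, had 0.19, -2.12 and 0.55, and Defa38 had -0.37, -2.05 and 0.16. In all 4 genes array 2 was the lowest array, and arrays 1 and 3 differed from each other by less than 1.

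Defa32 showed that a gene's mean can hide both directions. Its feature 21205 had 1.34, -3.22 and 0.33, low on array 2 as Defa21 was but less far from 0. Its feature 54849 had -0.23, 1.29 and 0.25, near those of Defa23 and Defa3. The mean of both, 0.56, -0.97 and 0.29, is therefore the value of no single feature. Defa31 had -0.11, 0.17 and 0.25, within 1 of 0 on each array.

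Defa5 and Defa37 were the genes on which the arrays had the same sign. Defa5, a classical cryptdin, had 0.41, 1.02 and 0.63, a mean of 0.69 ± 0.31 (95% interval 0.31 to 1.07, 1.61-fold higher). It did not pass (adjusted p = 0.0838, limma). Defa37 had 0.35, 1.35 and 0.82, a mean of 0.84 ± 0.50 (adjusted p = 0.0931, limma). All 3 arrays were above 0 for both genes, with array 2 the highest. Defa-ps13, a pseudogene that lies among beta defensin genes in the RefSeq order and not in the alpha cluster, had -0.37, -0.66 and 0.06.

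Products of Paneth cells other than defensins also differed between the arrays. Of 17 measured genes of this list none passed over all genes, and 3 were higher and 0 lower at an unadjusted p under 0.05 (limma), beside 12.0% and 14.3% of all genes. Their median was -0.21, 0.76 and 0.08 on arrays 1, 2 and 3, beside -0.18, 1.02 and 0.06 for the 9 alpha defensins. Mmp7, the matrilysin that cuts alpha defensins, had -0.21, 1.44 and 0.74. The ribonuclease gene Ang4 had -3.36, 1.53 and -1.17, the phospholipase gene Pla2g2a -0.15, 1.48 and 0.29, and the lectin gene Itln1 -0.36, 1.06 and 0.09 (these 3 named after their values were seen). All 4 were highest on array 2, as were 11 of the 17 genes, where 33.9% of all genes were. The other 6 were Lyz1, Reg3a, Reg3b, Reg3g, Dll4 and Kcnn4. Lyz1, the Paneth lysozyme and a defining marker of the cell type, had -0.01, -0.09 and -0.33, so that array 2 was not high for it. The bactericidal lectin genes Reg3b and Reg3g ran the other way, with 4.36, -0.33 and 4.91, and 4.74, 0.56 and 4.84, and Reg3a had 1.38, -1.70 and 0.98. Reg3b and Reg3g missed the threshold over 3 arrays (adjusted p = 0.147 and 0.0977) and passed without array 2 (adjusted p = 0.011 and 0.00386, limma). Without array 1 the adjusted p was 0.399 and 0.302, and without array 3 it was 0.383 and 0.274. Over all genes 66 passed without array 2, 10 without array 1 and 4 without array 3, against 68 with 3 arrays.

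Of 10 goblet cell markers, 1 of which (Spink4) is also in the Paneth list, none passed over all genes. At an unadjusted p under 0.05 (limma) 1 (Fcgbp) was higher and 0 lower, beside 12.0% and 14.3% of all genes. Array 2 was the highest array for 8 of the 10, where it was for 33.9% of all genes. It was not for Zg16 (0.32, -0.51 and 0.21) or Agr2 (0.22, -0.04 and -0.12). Their median was -0.25, 0.75 and -0.15, between -3.24 and 0.65 on array 1, -0.51 and 1.76 on array 2, and -0.67 and 0.89 on array 3. The mucin gene Muc2 had -0.07, 0.90 and 0.38. Markers of absorptive enterocytes (10 genes) had medians of 0.05, 0.30 and -0.12, and those of crypt base columnar stem cells (8 genes) 0.15, 0.16 and 0.26. The part of cell makeup in the alpha defensin values was not tested, and in whole tissue fewer cells of a type and less RNA per cell cannot be told apart. On array 2, 9 of the 15 alpha genes were above 0 and 6 below, and 14 of the 17 Paneth genes were above 0. Of all 20738 genes 9592 were above 0 on it.

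**Figure D2:**
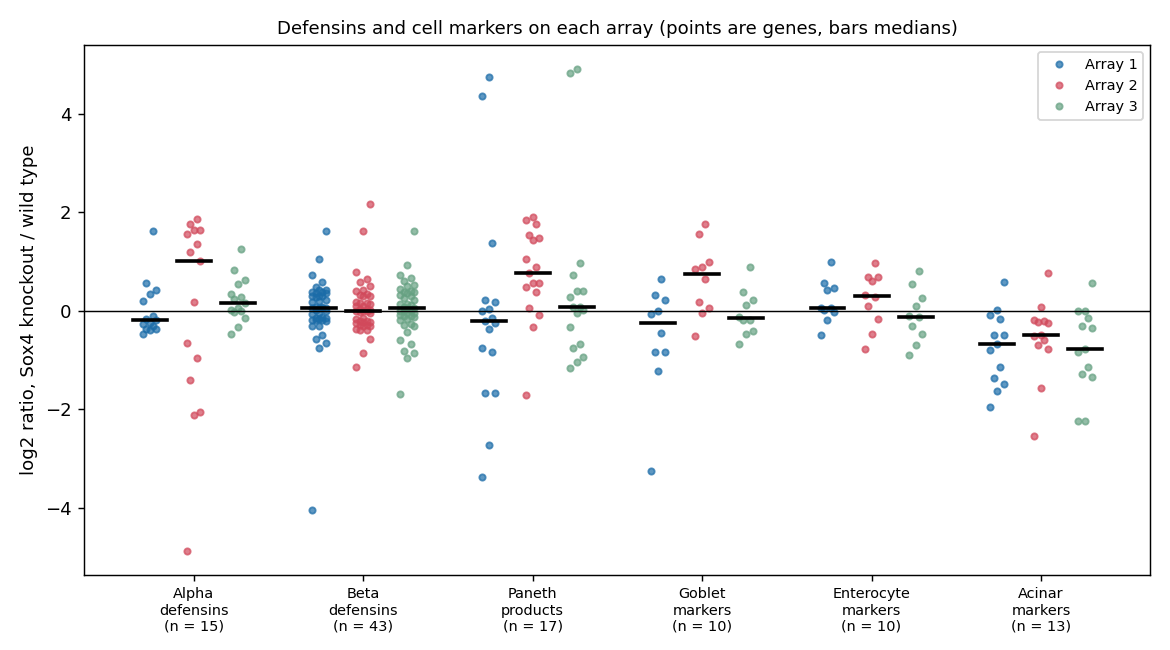
Log2 ratios of the genes (points) of 6 groups on arrays 1, 2 and 3, with the median as a bar. On array 2 the alpha defensins spread from -4.86 to 1.87 around a median of 1.02, while the beta defensins stay between -1.15 and 2.17 around 0.

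Genes that act on alpha defensins or set Paneth cell fate were measured for 31 of 31 list members. None passed over all genes, and 6 were higher and 5 lower at an unadjusted p under 0.05 (limma), where 12.0% of all genes were higher and 14.3% lower. The autophagy gene Atg16l1, needed for normal Paneth granules, had 0.54, 0.54 and 0.49, a mean of 0.52 ± 0.03 (adjusted p = 0.0793). The transcription factor gene Klf4 had -1.15, -0.48 and -0.57 (adjusted p = 0.0863). The trypsinogen genes Try4 and Try5 had -1.65 ± 0.77 and -1.72 ± 0.46 (adjusted p = 0.0676 and 0.0504). Try5 passed under 4 of 9 alternatives, with adjusted p-values between 0.0473 and 0.205 over all 9. Both are also pancreatic acinar genes and are counted among the 13 acinar markers, which had medians of -0.67, -0.48 and -0.77. Of these markers 6 were lower and 1 higher at an unadjusted p under 0.05 (limma), beside 14.3% and 12.0% of all genes. The 6 were Try4 and Try5 themselves and Cpb1, Cela1, Pnlip and Sycn. Enteroendocrine markers, which mark the hormone-secreting cells, had medians of -0.95, -1.34 and -1.08, and 5 of 10 passed the threshold (limma), all lower, where 0.222% of all genes did. With 2 arrays 2 passed without array 1, 3 without array 2 and 2 without array 3. Pyy, the gene of the hormone peptide YY, was lost in each case (adjusted p = 0.207, 0.0577 and 0.205, limma). Over all genes 10, 66 and 4 passed in these cases, against 68 with 3 arrays. Of the genes named here, the values of Atg16l1 were the most alike between arrays, and they did not show the high array 2 of the alpha genes.

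Among beta defensins Defb21 was the 1 gene of 42 to pass, and it rose. Its ratios were 1.62, 2.17 and 1.61 on arrays 1, 2 and 3, well above 0 on each. The mean was 1.80 ± 0.32 (95% interval 1.41 to 2.19), or 3.49-fold higher, with an adjusted p of 0.0371 (limma), where 0.106% of all genes passed as higher. The call rests on 1 feature, and with 2 arrays it was lost in 2 of the 3 cases. The mean was 1.89 (adjusted p = 0.168) when array 1 was left out, 1.90 (adjusted p = 0.205) when array 3 was, and 1.62 (adjusted p = 0.0437) when array 2 was. Over all genes 10, 4 and 66 passed in these cases, against 68 with 3 arrays. That Defb21 rose was known from earlier work on these data, so the call is no independent evidence. The RefSeq promoter table gives it a pair of starts, whose 160 preceding bases on GRCm38.p6 are printed to show that neither held the TCF/LEF, the longer Sox or the TATA motif, with matches of the shorter Sox motif in capitals.
Defb21, chr2:152572583-152572742, plus strand: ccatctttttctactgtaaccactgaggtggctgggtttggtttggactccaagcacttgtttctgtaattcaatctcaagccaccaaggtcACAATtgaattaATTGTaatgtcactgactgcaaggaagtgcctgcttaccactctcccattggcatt
Defb21, chr2:152573588-152573747, plus strand: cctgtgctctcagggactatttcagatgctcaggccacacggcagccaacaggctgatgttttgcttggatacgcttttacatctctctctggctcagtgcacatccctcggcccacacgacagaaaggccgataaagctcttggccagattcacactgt
None of the 29 beta genes in the promoter table held the TCF/LEF motif in this window, while 3 held the longer and 6 the shorter Sox motif and 3 the TATA motif. The shares of all promoter windows were 1.96% for the TCF/LEF, 10.7% for the longer Sox, 18.4% for the shorter Sox and 8.02% for the TATA motif. The beta counts were near these shares.

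Defb21 lies in a run of 11 measured beta defensin genes on chromosome 2, and its neighbours did not share its value. Defb29 on one side had 0.42, 0.09 and 0.14, and Defb19 on the other had 0.05, 0.19 and -0.08. The medians of the 11 genes were 0.05, -0.03 and 0.06 on the 3 arrays, and Defb21 alone lay beyond 1 on each. Markers of the epididymis and testis, where many beta defensins are expressed, had medians of 0.01, 0.13 and 0.20 over 12 genes. None of these markers passed, and 1 was higher and 0 lower at an unadjusted p under 0.05 (limma), beside 12.0% and 14.3% of all genes.

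The textbook epithelial beta defensins did not move together. Defb1, the constitutively expressed member, had -4.05, 1.62 and -1.68, which is 16.6-fold lower on array 1, 3.08-fold higher on array 2 and 3.21-fold lower on array 3. Its SD of 2.85 ranked 7 among all genes, and its mean of -1.37 did not pass (adjusted p = 0.415, limma). Defb4, an inducible member, had -0.76, -1.15 and -0.59, below 0 on all 3 arrays, with a mean of -0.83 ± 0.29 (1.78-fold lower, 95% interval -1.20 to -0.47). It did not pass either (adjusted p = 0.0684). Defb2 had 0.17, 0.30 and -0.16 and Defb3 0.20, -0.01 and 0.00, both around 0.

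The remaining beta defensins lay near 0. At an unadjusted p under 0.05 (limma), 4 of the 42 were higher (Defb21, Defb12, Defb30 and Defb22) and 2 lower (Defb4 and Defb37), where 26.3% of all genes had such a p. Defb12 had 0.37, 0.41 and 0.67, and Defb37 -0.66, -0.86 and -0.30. Defb22 had 0.30, 0.17 and 0.53, and Defb15 0.08, 0.65 and 0.31. Adjusted p-values were 0.0977 for Defb12 and 0.0915 for Defb37, and the means of the other named members Defb38 and Defb43 were -0.42 ± 0.38 and 0.38 ± 0.67. Of the 42 genes 22 had a mean above 0 and 20 below. On all 3 arrays 17 of them (40.5%) had the same sign, where 50.6% of all genes did. The median of the 42 genes was 0.05, 0.00 and 0.03 on arrays 1, 2 and 3. Beyond 1 in size lay 3, 3 and 2 genes (7.14%, 7.14% and 4.76%), above the 3.59%, 4.27% and 3.26% of all genes. Apart from Defb1, Defb4 and Defb21, only Defb43 (1.04 on array 1) was beyond 1 on any array.

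**Figure D3:**
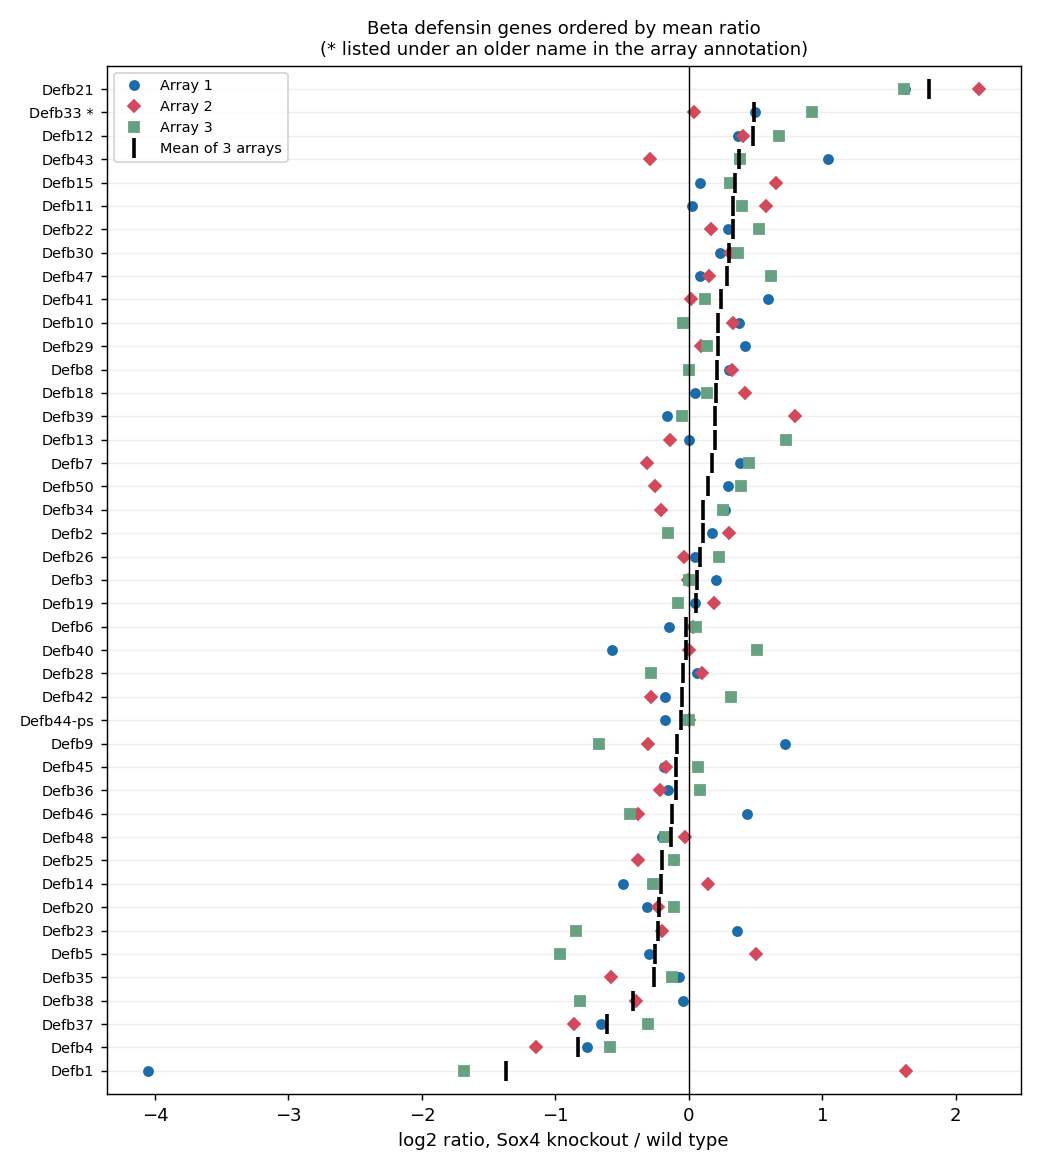
Log2 ratios of 43 beta defensin genes on the 3 arrays (symbols) with the mean as a black tick, ordered by the mean. Defb21 lies above 1.6 on all 3 arrays and Defb1 spans -4.05 to 1.62, while most genes lie within 1 of 0.

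Features of Defb30 disagreed in a way that the arrays did not. Feature 57317 had -0.44, -0.34 and -0.38, and feature 10433 had 0.83, 0.57 and 0.76. Feature 40105 had 0.37, 0.85 and 0.84 and feature 31887 had 0.16, 0.16 and 0.25. The gene's mean of 0.30 ± 0.07 (adjusted p = 0.167) thus hides a spread between features larger than that between arrays. Among the beta features, 7 of 150 values were exactly 0, in 6 of 50 features, and none of the 63 alpha values. Over the whole array 1.38%, 1.54% and 1.03% of the features were exactly 0 on arrays 1, 2 and 3, and what such a value stands for is not given in the sources used here.

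Genes of the beta-defensin pathway, that is receptors, inducing cytokines and sensors, were measured for 26 of 26 list members. None passed over all genes, and 3 were higher and 3 lower at an unadjusted p under 0.05 (limma), a share near the 12.0% higher and 14.3% lower of all genes. The medians were -0.03, -0.02 and 0.02. The bacterial lipopeptide receptor gene Tlr1 had 0.92, 0.89 and 1.02 (adjusted p = 0.0541) and the adaptor gene Myd88 0.32, 0.32 and 0.40 (adjusted p = 0.135). The lipopolysaccharide receptor gene Tlr4 had -0.69, -0.36 and -0.25 (adjusted p = 0.131), and Rela, an NF-kappaB subunit, -0.35, -0.56 and -0.37 (adjusted p = 0.106). Each of these had the same sign on all 3 arrays, where 50.6% of all genes did, and Tlr1 came closest to the threshold. They are the genes with the smallest p of the list, which favours a shared sign, so that agreement adds little. Markers of neutrophils and macrophages had medians of 0.16, 0.12 and 0.01 over 10 genes, with none at an unadjusted p under 0.05.

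Set against each other, alpha and beta medians differed by -0.23 on array 1, 1.02 on array 2 and 0.03 on array 3 (alpha minus beta, mean 0.27 ± 0.66, n = 3). The difference was smaller than its spread between arrays, and its sign was not shared by the arrays. The median of the 9 alpha means was 0.15, and -0.11 without array 2. The beta median was 0.06 over 42 genes, and that of all genes -0.03.

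The alpha genes also lie together. In RefSeq order 14 measured alpha genes, from Defa21 to Defa-ps1, form a block on chromosome 8 with 16 measured defensins before it and 9 after it. On array 2, where 4.27% of all genes lay beyond 1 in size, 12 of the 14 did. This was against 1 of the 16 before (Defb4) and 1 of the 9 after. The latter was Defb1, the first measured gene after the block. Genes high and low on array 2 alternated along the block, with Defa21 low, Defa23 high, Defa25 and Defa38 low, Defa40, Defa3, Defa5 and Defa27 high, Defa42 low, and Defa37, Defa26 and Defa-ps1 high. Of the 10 nearest measured genes that flank the defensin region, 5 on each side, 1 lay beyond 1 on array 2 (Fam90a1a, 1.01). Of 9 other genes between the defensins, 1 did (AY761185, 1.02), and Gm15056 had 1.57, -0.22 and 1.36. Beta defensins on chromosomes 1 and 14 (3 and 5 measured genes) had none beyond 1 on array 2.

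**Figure D4:**
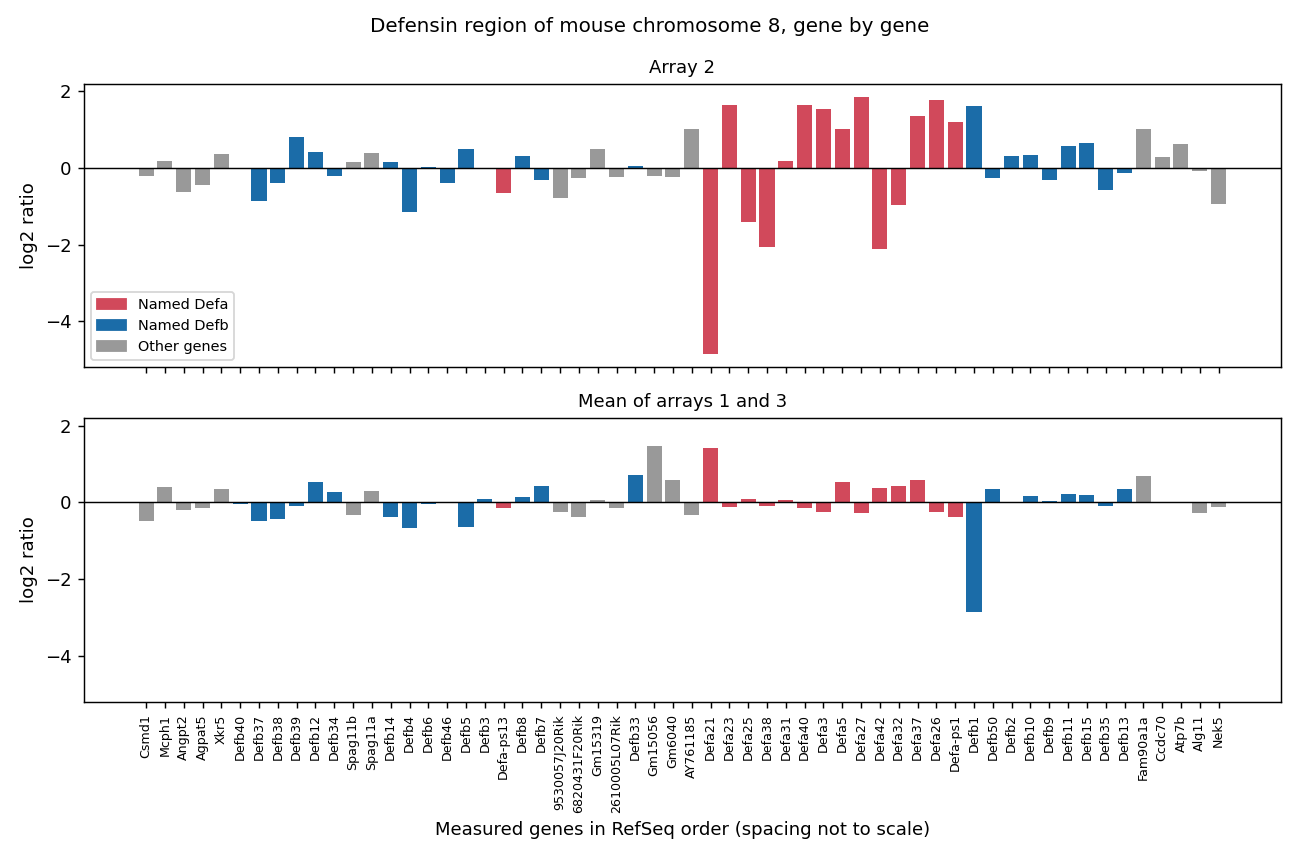
Log2 ratios of the measured genes of the chromosome 8 defensin region in RefSeq order (bars), on array 2 above and as the mean of arrays 1 and 3 below. The alpha block holds 12 of 14 genes beyond 1 in size on array 2, in both directions, and Defa21 reaches -4.86.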

How the data were processed

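Per the values, the deposited table gives the log2 ratio of both dyes for 62976 features on 3 arrays. How the authors corrected and normalized them, the log base and which dye is the numerator are not stated here, and no intensities were used. Base 2 was taken as usual for a deposited ratio, and the Cy5 channel, which per the labels holds the knockout, as numerator. Array medians were 0.007, 0.003 and 0.011, so no scaling was added. The number of arrays limits the precision, dim features could not be removed, and p-values measure only the spread between these ratios. Whether that holds the spread of wild type is not known, since the labels do not say if the wild-type RNA was pooled.

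Features were named through the platform annotation, updated by accession, symbol or synonym with a RefSeq gene table (GRCm38.p6, for names and gene order only). Of 31465 named features 29036 matched by accession. Features of a gene were averaged on each array, and Defb41 includes 1 feature with an older name. The test asked whether a gene's mean differs from 0 (limma 3.58.1, R 4.3.3, eBayes with 2 residual and 3.51 prior degrees of freedom, two-sided, all 20738 genes), and was checked on simulated data. In that check 3 of 50 genes changed by a log2 size of 0.5 were called, and 48 of 50 changed by 1. All 50 were called at a size of 2 and at 4, and 18 unchanged genes were called falsely. Measured genes with means beyond 1 went both ways. Pnlip (-1.24), Sycn (-1.10), Try4 (-1.65) and Try5 (-1.72) did not pass, while Scg2 (-1.17) and Pyy (-1.43) did. The median SD was 0.91 for the 9 alpha defensins and 0.22 for all genes. The shares called in the check are therefore no measure of how often a changed defensin would be called. The members and gene lists were chosen with earlier results of these data known. Named members are those past the threshold, the 6 smallest p, 4 highest and 4 lowest means of each family, and Defb1 to Defb4. Of other lists only genes that bear on the defensins are named. Gm14851, an older name of Defa38, was left out of the Paneth list. Promoters were aligned with Biopython 1.88 (global, match 1, mismatch -1, gap -3 and -0.5). The planned description of proteins was not made, and protein and probe sequences are not used here.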

Additional observations from a re-analysis of the deposited data

How the results depend on the processing

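With 2 arrays the number of beta defensins past the threshold as higher ranged from 0 (without array 1 and without array 3) to 1, and the median of the beta means from 0.0165 to 0.0568, the lowest without array 2. Of all defensin means read, 10 of 15 alpha, each without array 2, and 12 of 43 beta changed sign when an array was left out, none of them past the threshold. Among the named members these were Defa21 (-1.81 to 1.43), Defa23 (-0.11 to 0.83), Defa25 (-0.79 to 0.0795), Defa26 (-0.25 to 0.79), Defa3 (-0.25 to 0.76), each without array 2, and Defb3 (-0.0045 to 0.10), without array 1. Such changes of sign were not counted over all genes, so whether the defensin counts are unusual was not tested. Of all genes 50.6% had the same sign on all 3 arrays. Centring, scaling, quantile normalization, robust moderation, the median of features and older symbols (which give no value for Defa31) changed no sign of the named members. These, membership by updated symbol and single features changed no count of defensins called. The mean of 1 of 21 alpha and 3 of 50 beta features had the sign opposite to that of its gene. No paired analysis was possible because the arrays form 1 group. The table holds no signal over background, so which ratios come from dim features is unknown.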
